A study of Homo sapiens with 8 samples.

Results

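The region studied was the locus of ESR1, the gene for estrogen receptor alpha (ER), and the question was where ER itself was bound there in LY2 breast cancer cells with and without CDK12. Members were all ER ChIP-seq peaks that overlapped the GENCODE gene body of ESR1 (ENSG00000091831, plus strand of chromosome 6) or the 100 kb on either side, taken from 4 deposited peak lists. There were 15 such peaks among 35944 in all. The window ran over chr6:151556691-152229619 of GRCh38, 672.929 kb in all, of which the gene body took 472.929 kb. LY2 is a tamoxifen-resistant ER-positive line derived in culture and kept in 4-hydroxytamoxifen. All 4 libraries came from LY2 cells that were serum-depleted for 24 h without 4-hydroxytamoxifen, transfected with an siRNA pool for 48 h and exposed to estradiol (β-estradiol, 1 µmol/L) over 1 h, then fixed for 10 min in 1% formaldehyde. The pool was non-targeting in the siCtrl cells (replicates 2 and 3) and directed against CDK12 in the siCDK12 cells (replicates 3 and 4), so estradiol and serum depletion were shared by both conditions and no library lacked estradiol. Peak lists hold no expression, so the loss of CDK12 itself could not be checked from them.

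ER is a nuclear receptor that, with estradiol bound, sits on DNA as a dimer at the estrogen response element, the palindrome GGTCA, 3 bases of any kind, TGACC. In luminal breast cells it binds mostly at distal enhancers, next to factors such as FOXA1 and GATA3, and ER is known to take part in the control of its own gene. ESR1 is read from several promoters spread over a long 5′ region. CDK12 is a kinase that, with cyclin K, phosphorylates the tail of RNA polymerase II during elongation.

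GENCODE gave ESR1 14 transcripts with 12 different starts that spanned 287.481 kb. The start of the canonical transcript, ESR1-201, lay at 151807682 and is used below as the zero point of all distances, with negative values upstream. The window also held CCDC170, a coiled-coil protein gene that neighbours ESR1 and is known as a fusion partner of it in breast cancer, and the 3′ portion of SYNE1, which encodes the nuclear envelope protein nesprin-1. With a small RNA gene and 3 long non-coding RNA genes it overlapped 7 genes in all.

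The peaks are numbered P1 to P15 along the chromosome. The sequences that follow are those of the strongest peak of each siCtrl library by its q-value, on the plus strand of GRCh38. They are shown because the results turn on what these summits hold and lack, and capitals mark the estrogen response element half-site (GGTCA, or TGACC where it is read from the minus strand). P5, the strongest peak of siCtrl replicate 2, lay in intron 7 of CCDC170, and the 201 bases centred on its summit (chr6:151589809-151590009) had no half-site. For P14, the strongest peak of siCtrl replicate 3, which overlapped an exon and an annotated UTR of SYNE1, 29 bases around the half-site are given (chr6:152130630-152130658).
P5: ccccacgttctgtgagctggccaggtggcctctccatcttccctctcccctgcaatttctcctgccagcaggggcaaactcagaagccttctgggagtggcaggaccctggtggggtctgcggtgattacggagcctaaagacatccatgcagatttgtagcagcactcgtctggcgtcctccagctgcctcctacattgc
P14: agaccagatataGGTCAacctaagtcatg

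In siCDK12 the strongest peak of replicate 4, P2, lay in intron 5 of CCDC170, and the sole peak of replicate 3, P8, lay in the ESR1 gene upstream of the canonical start. P12, of siCDK12 replicate 4, was the peak nearest to an ESR1 start and lay in intron 4 of ESR1.

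No estrogen response element was found at any of the 15 summits when 1 mismatch was allowed in its 10 fixed bases and both strands were searched within 100 bp. A count of 0 of 15 allows a share of up to 20%, and 2.26% of all peaks of the 4 libraries held such an element, so the members did not stand out from the background. P1, P3 and P7 came closest, with 2 mismatches each. The lists did hold the element elsewhere, at 2.57% and 3.66% of peaks in siCtrl and 1.43% and 1.05% in siCDK12, beside 0.347% to 0.410% of windows 1000 bp from their summits. The half-site stood at 7 of 15 members, in P1, P2, P4, P6, P8, P10 and P14, beside 37.5% of all peaks and 26.0% of windows placed 1000 bp from the summits. Of partner motifs, the forkhead core (TGTTTAC or TATTTAC), the site type of FOXA1, was at 0 of 15 members and at 3.24% of all peaks. The GATA motif (AGATAA or TGATAA), the site type of GATA3, was at 0 of 15 members and at 12.5% of all peaks. The AP-1 motif (TGA, any base, TCA), bound by FOS and JUN proteins, was at 1 of 15, P9, and at 6.60% of all peaks. In windows 1000 bp from the summits of all peaks, the forkhead core was at 7.57%, GATA at 25.3% and AP-1 at 6.33%. The forkhead and GATA motifs were thus rarer at the summits of the lists than beside them, and AP-1 was about level. These matches describe letters in a window and not bound sites.

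Elements were present in the window but away from the peaks. It held 18 elements with 1 mismatch, or 26.7 per Mb, beside 20.4 per Mb over the genome, and 0 with no mismatch, of 2205 in the genome. None of the 18 had a summit of any library within 100 bp. Over the genome 0.964% of elements with at most 1 mismatch had one, and 2.95% of the perfect ones. The 0 of 18 is thus near the background and is no result about ESR1. The elements closest to a summit and to a start are printed here in capitals over their whole length, plus strand, because they show how far the nearest palindromes lay. The first (chr6:152137671-152137683) was 2241 bp from the summit of P15, the next (chr6:151567124-151567136) was 2317 bp from that of P3, and the last (chr6:151658265-151658277) was 1580 bp from the start of ESR1-211.
Element near P15: AGTCACATTGACC
Element near P3: GGTCAGGCTGATC
Element near ESR1-211: GGTTAGTTTGACC

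**Figure D1:**
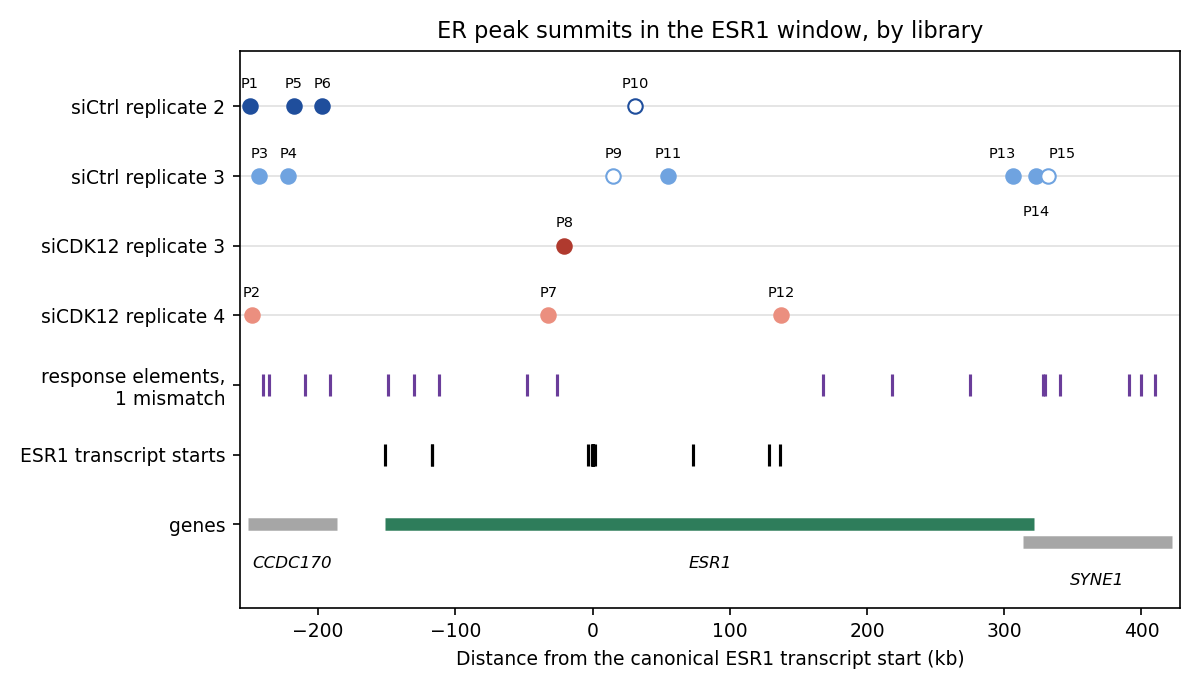
Summits of the 15 ER peaks by library, against distance in kb from the canonical ESR1 start, with 18 response elements of 1 mismatch, the annotated ESR1 starts and the 3 long protein-coding genes drawn beneath. Filled points have q under 0.05 and open points do not, and no summit of any library stands above that of another or in the cluster of starts at 0.

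The 15 peaks fell in 3 stretches. Upstream, 6 lay before the ESR1 gene, all of them over CCDC170, from -249.7 kb (P1) to -196.9 kb (P6). Within the gene body lay 7, P7 to P13, and 4 of these were inside the canonical transcript. P9 and P10 were in its intron 1, P11 was in its intron 2 and P12 was in its intron 4. P7 and P8 lay at -32.2 kb and -20.6 kb, upstream of the canonical start and inside 3 transcripts that begin farther out. P13 lay past the canonical end, at 306 kb, in ESR1 and in a long non-coding RNA gene. Downstream, P14 and P15 overlapped exons of SYNE1 at 323 kb and 332 kb. No member overlapped an exon of ESR1. P4 lay on exon 7 of CCDC170.

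No peak of any library lay at the main ESR1 promoters. The summit nearest to the cluster of starts around the canonical one was P9, 13.553 kb from the start of ESR1-206, in siCtrl replicate 3. In siCtrl replicate 2 the nearest was P10, 29.344 kb from that start. In siCDK12 the nearest were P8 of replicate 3, at -17.386 kb from the start of ESR1-202, and P7 of replicate 4, at -28.994 kb from the same start. The summit of 1 of 15 peaks, P12, lay within 1 kb of an annotated start, 873 bp past that of ESR1-212, a transcript with no defined coding sequence. Over all peaks, 7.1% lay within 1 kb of an annotated start of some gene. The 6 ESR1 promoters in RefSeq (GRCh38.p14, 250 bases before to 50 after each start) held 0 peaks. The share of all RefSeq promoters with a peak is not given here. An element with at most 1 mismatch was in 0 of 6, near the 0.817% of 35116 RefSeq promoters. A half-site was in 1 of 6, beside 37.4% of those promoters. The summits nearest to the 6 ESR1 promoters were 13.553 kb to 79.784 kb away.

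Peak numbers differed among the libraries. The ESR1 window held 4 peaks in siCtrl replicate 2 (P1, P5, P6 and P10) and 7 in siCtrl replicate 3 (P3, P4, P9, P11, P13, P14 and P15). It held 1 peak in siCDK12 replicate 3 (P8) and 3 in siCDK12 replicate 4 (P2, P7 and P12). Both siCDK12 numbers were below both siCtrl numbers, with means of 5.5 ± 2.12 (SD, n = 2) in siCtrl and 2 ± 1.41 (SD, n = 2) in siCDK12, a ratio of 0.364. The two-sided exact permutation p was 0.3333, the smallest that 6 assignments allow, so this test could not reach 0.05. Among 20033 protein-coding gene windows built in the same way, 9.61% also had fewer peaks in both siCDK12 libraries than in either siCtrl library. Those windows held a median of 2 peaks, beside 15 at ESR1, so the share is not one among windows of like size. Whether the replicates were separate cultures was not settled by the labels. The p counts assignments of these 4 libraries to conditions and does not measure their spread.

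The order of the conditions did not hold in each setting. With lists of equal length, the 6653 strongest peaks of each library by p-value, the numbers were 2 and 7 in siCtrl and 1 and 3 in siCDK12, and the groups overlapped (ratio 0.444, exact permutation p = 0.667). In the gene body alone the numbers were 1 and 3 in siCtrl and 1 and 2 in siCDK12, and the groups overlapped (ratio 0.75, exact permutation p = 1). With q under 0.05, which 75.4% of all peaks met, 12 of the 15 members remained, 3 and 5 in siCtrl and 1 and 3 in siCDK12 (ratio 0.5, exact permutation p = 0.667). The 3 that did not meet it, P9, P10 and P15, were all of siCtrl. At a -log10 q of at least 3 the direction turned, with 2 peaks in siCDK12 replicate 4, P2 and P12, and 0 in the other 3 libraries.

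The lists differed in length, with 15149 peaks in siCtrl replicate 2 and 6653 to 7229 in the others, so the members were also taken as a share of each list. It held 0.0265% of the list of siCtrl replicate 2 (exact Clopper-Pearson 95% interval 0.00722% to 0.0678%) and 0.102% of that of siCtrl replicate 3 (0.0409% to 0.209%). It held 0.0151% of the list of siCDK12 replicate 3 (0.000382% to 0.0840%) and 0.0416% of that of siCDK12 replicate 4 (0.00859% to 0.122%). The intervals cover counting error only, and they overlapped among all 4 libraries. The window takes 0.0218% of the genome, and only the interval of siCtrl replicate 3 lay above that share.

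The peak density in the window was 5.94, 10.4, 1.49 and 4.46 per Mb, in the order siCtrl replicates 2 and 3 and siCDK12 replicates 3 and 4. Over chromosomes 1 to 22, X and Y it was 4.89, 2.23, 2.15 and 2.33 per Mb. The ratio of window to genome was thus 1.22, 4.66, 0.692 and 1.91, with a mean of 2.12 ± 1.77 (SD, n = 4). Without siCtrl replicate 3 that mean was 1.27. At genome density the window would have held 3.29, 1.501, 1.45 and 1.57 peaks. Summed over the libraries, ESR1 had 22.3 peaks per Mb beside a median of 8.45 over all protein-coding gene windows, and 14.2% of those windows had at least its density.

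**Figure D2:**
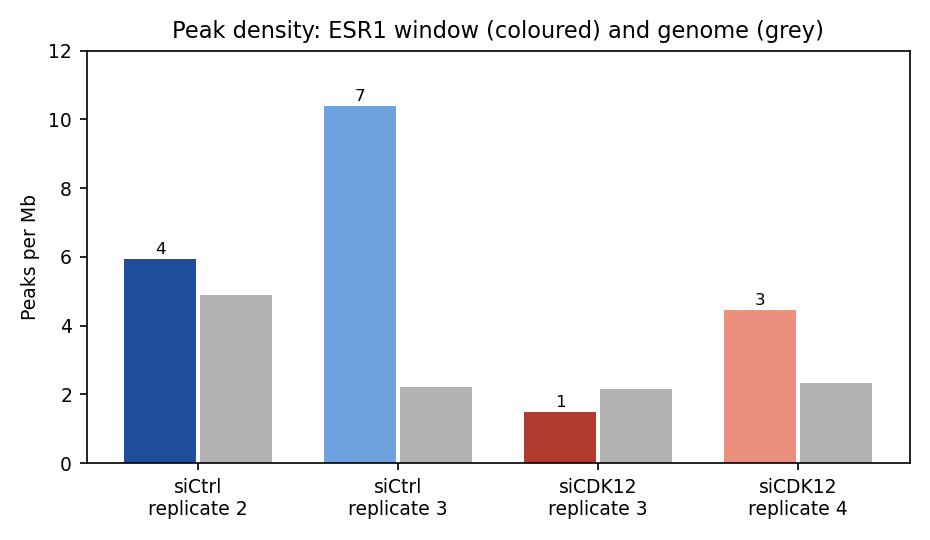
Peaks per Mb (bars from 0) in the ESR1 window, coloured, and over chromosomes 1 to 22, X and Y, grey, for each of the 4 ER libraries, with the number of window peaks above each coloured bar. siCtrl replicate 3, with 7 peaks, stands farthest above its genome density, and siCDK12 replicate 3, with 1 peak, lies below it.

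No position was shared. Each of the 15 peaks belonged to 1 library alone, so 0 of 15 sites had a peak in more than 1 library, 0 in both siCtrl and 0 in both siCDK12 libraries. Over the genome, 4.96% of 33734 sites had a peak in more than 1 library, and 9.04% of protein-coding gene windows held such a site, so 0 of 15 is near the background and is no result about ESR1. The nearest summits of different libraries were P1 of siCtrl replicate 2 and P2 of siCDK12 replicate 4, 1269 bp apart in intron 5 of CCDC170. P4 of siCtrl replicate 3 and P5 of siCtrl replicate 2 followed, 3917 bp apart, and then P2 and P3, 5596 bp apart. P7 and P8, of the 2 siCDK12 libraries, were 11.608 kb apart. A peak list states nothing about reads below its threshold, so a site without a peak in a library is not a site without binding.

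The peaks were small in every library. Their summits had between 9 and 17 reads piled up over a local background of 1.48 to 3.86 reads, and the deposited fold over background ran from 2.70 to 5.11 with a median of 3.83. Typical peaks were of like height, since the median pileup was 8 in the list of siCtrl replicate 2 and 10 in each of the others, and the median fold of the lists was 3.85 to 3.97. The highest peaks of the lists reached 290, 314, 172 and 116 reads. Pileups are reads of each library and were not scaled between them, and the lowest background levels of the libraries, which follow depth, were 1.01, 1.16, 1.23 and 1.18 reads.

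In siCtrl replicate 2, P5 had 12 reads over 2.03, P6 had 12 over 2.14, P1 had 9 over 1.63 and P10 had 9 over 1.93. The best placed of them, P5, ranked 3804 of 15149 peaks by p-value. In siCtrl replicate 3, P4 had 13 reads over 2.87, P14 had 12 over 2.19, P3 had 12 over 2.40 and P9 had 12 over 3.82. P13 had 10 reads over 1.73, P11 had 9 over 1.48 and P15 had 9 over 1.91. The best placed there, P14, ranked 2531 of 6913, and P9, the weakest of the 15 by fold at 2.70, ranked 6576. Each siCtrl peak in the window thus had at least 25.1% of its list above it.

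In siCDK12 replicate 3, P8 had 15 reads over the highest background of the 15, 3.86, and ranked 3388 of 6653. In siCDK12 replicate 4, P2 had 17 reads over 2.90 and a -log10 q of 3.49, and P12 had 14 reads over 1.93 and a -log10 q of 3.44. They ranked 351 and 374 of 7229, with 4.84% and 5.16% of their list above them, and P12 had the highest fold of the 15, at 5.11. P7 had 10 reads over 1.93 and ranked 4371. By library, the peaks covered 9 to 12 reads in siCtrl replicate 2 and 9 to 13 in siCtrl replicate 3. In siCDK12 they covered 15 reads in replicate 3 and 10 to 17 in replicate 4, which overlapped both siCtrl ranges. These reads were not scaled between libraries.

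**Figure D3:**
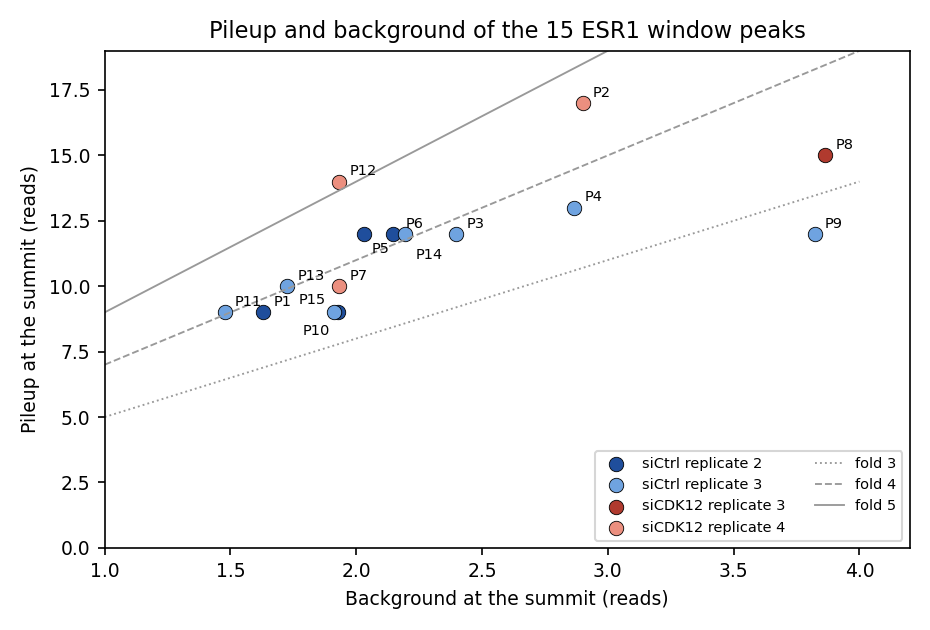
Reads piled up at the summit against local background reads for the 15 ESR1 window peaks, coloured by library, with lines at folds of 3, 4 and 5. All points lie between 9 and 17 reads, P12 alone lies above the line of fold 5 and P9 alone below that of fold 3.

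The sequences at the 15 summits differed in how often their words recur in the genome. Of the 4 siCDK12 peaks, 3 came from replicate 4, and peaks of 1 library are not replicates of a condition. Each 201-base window was read as overlapping words of 14 bases, and the median number of genome copies of a word, both strands counted, was taken for the window. This measure was chosen after the sequences had been seen, and no test was made of it. The siCDK12 peaks had medians of 15389.5 copies (P2), 1314.5 (P8), 707.5 (P12) and 299.5 (P7). Among the siCtrl peaks P1 had 2317.5 copies and the other 10 had between 20 and 47. At least 100 copies were thus reached by 4 of 4 peaks of siCDK12 and by 1 of 11 of siCtrl, beside 26.9% of all peaks. Over all peaks the conditions were alike, at 26.5% in siCtrl and 27.4% in siCDK12, and windows 1000 bp from the summits reached it in 22.9%. The part of these copies in the peak calls was not tested, and repeat annotation was not used here.

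Without peaks of at least 100 copies the siCtrl libraries kept 3 and 7 peaks in the window and both siCDK12 libraries kept 0. That limit was chosen after the data were seen, so these numbers restate the copies given above and no test is attached to them. It left no siCDK12 peak at ESR1, P12 included, and so 0 peaks within 1 kb of an ESR1 start.

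**Figure D4:**
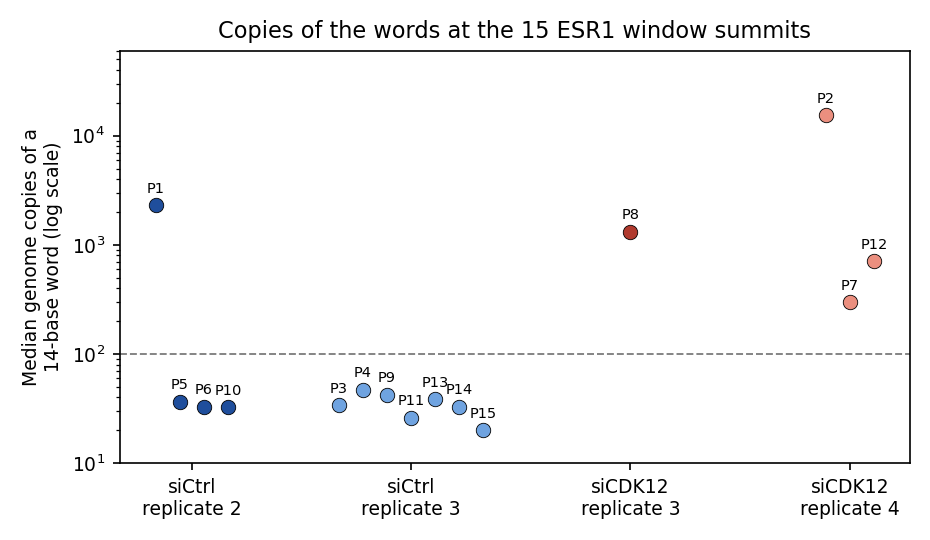
Median number of genome copies of the 14-base words in the 201 bases at each summit (log scale), by library, with a dashed line at 100 copies. All 4 siCDK12 peaks lie above the line, and of the 11 siCtrl peaks P1 alone does.

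The ESR1 window was set beside those of GREB1, NRIP1 and TFF1, classic estrogen-induced genes that encode a cofactor of ER, a nuclear receptor corepressor and a secreted trefoil peptide. GREB1 had 11 peaks, 3 and 5 in siCtrl and 2 and 1 in siCDK12, with a highest fold of 40.0. It had 3 sites in more than 1 library, and all 4 libraries shared 1 of them. TFF1 had 7 peaks, 3 and 2 in siCtrl and 1 in each siCDK12 library, with a highest fold of 20.2 and 1 site that all 4 libraries shared. NRIP1 had 2 peaks, 1 in each siCtrl library and 0 in siCDK12, at 1 shared site with a highest fold of 7.94. ESR1 had 15 peaks in a longer window and no shared site. Per Mb it had 22.3 peaks, below the 30.5 of GREB1 and the 34.3 of TFF1 and above the 6.56 of NRIP1.

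The strongest peak was lower at ESR1 than at GREB1 and TFF1 in each library, though this was not tested. Low heights were not particular to ESR1. Of the factor windows described below, FOXA1 had 12 to 17 reads where it had a peak, and CCNK had 9 to 15. Higher ones were at XBP1, with 30 and 18 reads in siCtrl, and at NCOA3, with 69 to 77. The highest fold was 8.10 at XBP1 but 3.27 at NCOA3, beside 5.11 at ESR1, so the NCOA3 reads lay over a high background. At GREB1 the strongest peak had 117 and 109 reads in siCtrl and 38 and 26 in siCDK12. At TFF1 it had 111 and 87 reads in siCtrl and 30 and 44 in siCDK12. At both genes the conditions did not overlap, and siCtrl was higher. The share of all gene windows with such an order is not given here. At ESR1 the strongest peak had 12 and 13 reads in siCtrl and 15 and 17 in siCDK12, at different positions in each library. siCDK12 was slightly higher in these reads, which were not scaled between libraries. The highest folds at ESR1 were 4.29 and 4.07 in siCtrl and 3.29 and 5.11 in siCDK12, and these overlapped. No test of these heights was made.

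**Figure D5:**
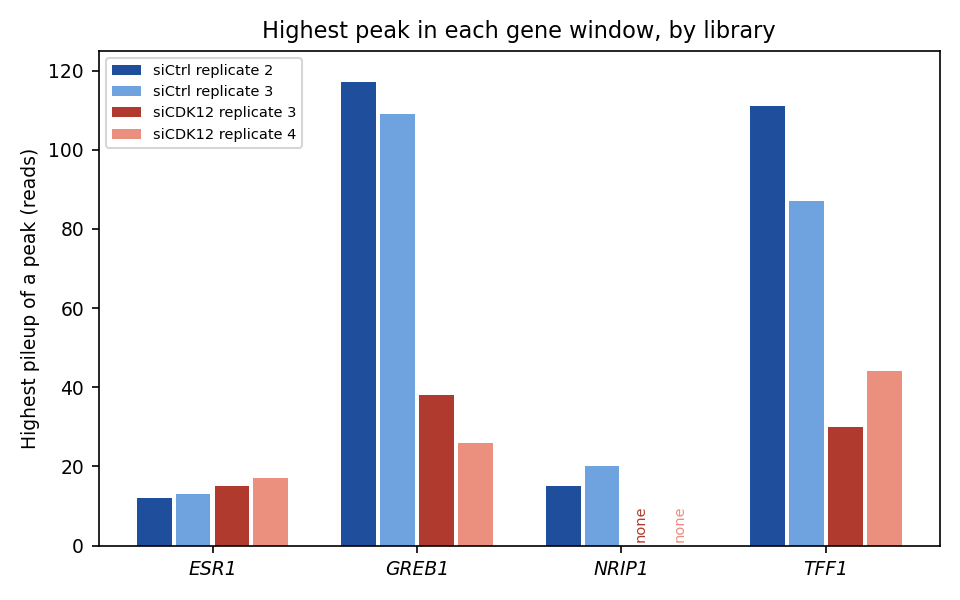
Highest pileup of a peak, in reads, in the ESR1, GREB1, NRIP1 and TFF1 windows for each of the 4 libraries (bars from 0, none where a library had no peak). The ESR1 bars lie between 12 and 17 reads in all 4 libraries, and those of GREB1 and TFF1 reach 117 and 111 in siCtrl.

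Among 12 luminal factors and ER cofactors taken with the same window (FOXA1, GATA3, TFAP2C, PGR, XBP1, NCOA1, NCOA3, MED1, EP300, CREBBP, CDK12 and CCNK), 11 had a peak and 2, XBP1 and NCOA3, had a site in more than 1 library. Their median density was 16.1 peaks per Mb, beside 22.3 for ESR1. NCOA3, a steroid receptor coactivator, had 155 peaks, spread evenly over the libraries at 37 to 40 each and none above a fold of 3.27. XBP1, a transcription factor of the unfolded protein response that estrogen induces in breast cancer cells, had 3 peaks in siCtrl replicate 2, 2 in siCtrl replicate 3 and 0 with siCDK12. At FOXA1 the siCtrl libraries had 0 and 1 and the siCDK12 libraries 3 and 1, and PGR, the progesterone receptor gene, had 0 in all 4 libraries. CDK12 itself had 1 peak, in siCtrl replicate 2, which the overlapping MED1 window also held.

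Just past the limits of the ESR1 window, the nearest peak of siCtrl replicate 2 lay 6.156 kb before it (fold 4.42) and that of siCDK12 replicate 4 lay 22.337 kb after it (fold 4.77). The nearest peaks of siCtrl replicate 3 and siCDK12 replicate 3 were 147.777 kb before and 167.645 kb after it. All 4 were peaks of 1 library, like those just inside, P1 with a fold of 3.80 and P15 with a fold of 3.44.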

How the data were processed

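ER ChIP-seq peak lists of 4 LY2 libraries were analysed, 2 of siCtrl and 2 of siCDK12. The inputs, 2 per condition, were not analysed here. Read filtering, alignment to GRCh38 (BWA-MEM, 0.7.17-r1188 in the submitters' processing notes) and narrow peak calling by library (MACS2 2.2.7.1, stated FDR of 0.05) were done by the authors, who left out a divergent library of each condition. The deposited fold is the ratio of pileup over local background at the summit, and p-value and q-value were deposited as their -log10. The score that the authors deposited is 10 times the -log10 p-value with its decimals dropped. The lists held 15149, 6913, 6653 and 7229 peaks and reached below the stated FDR, to a -log10 p-value of 3. Read depth was not given in them, and no value was normalized between libraries.

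Peaks on chromosomes 1 to 22, X and Y were assigned to GENCODE release 44 gene windows, and to each other as sites, by an overlap of at least 1 bp. The fold, read as (pileup + 1) over (background + 1), was solved together with the Poisson p-value for pileup and background. Functions were tested on simulated data with SciPy 1.17.1, NumPy 2.4.6 and pandas 2.3.3 (Python 3.11.15). All peaks in the window are named, beside GREB1, NRIP1, TFF1 and a list of luminal factors and ER cofactors, of which 12 are given. Sequences were chosen for peaks that were shared, held an element, lay nearest to an ESR1 start or were strongest by q-value in their library. Some items that these rules name are not reported here. The members and lists were chosen with earlier results of these data known. Alternatives were other thresholds, equal list lengths, smaller windows, other overlaps, other start and element settings and each library left out.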

Additional observations from a re-analysis of the deposited data

How the results depend on the processing

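The ratio of mean peak numbers in the ESR1 window, siCDK12 over siCtrl, was 0.364. It lay between 0.182 and 0.75 under 9 other thresholds, list lengths, windows and sets of libraries. The exact permutation p could not fall under 0.05 in any of them, so it is no measure of how the ratio depends on the setting. Without peaks of at least 100 copies of their words, a setting chosen after the copies were seen, the ratio was 0. At a -log10 q of at least 3 no ratio could be formed, since siCtrl had 0 peaks and siCDK12 had 2. With 1 library left out the ratio ran from 0.182 to 0.545. Shared sites stayed at 0 under every alternative, with sites joined within 500 bp included. The number of peaks within 1 kb of an ESR1 start was 1, and it was 0 within 500 bp, with protein-coding transcripts only, with the canonical transcript only and without peaks of at least 100 copies of their words. It ran from 0 to 1 with a library left out, and the 0 came without siCDK12 replicate 4. The number of peaks with a response element was 0, and 3 with at most 2 mismatches. The density of the window over that of the genome was 2.12 and ran from 1.27 to 2.60 with a library left out. It was 1.52 in the gene body alone. At a -log10 q of at least 3 it was 3.57, which rests on 2 peaks of siCDK12 replicate 4, with 0 in each other library. No alternative moved the density ratio by more than the SD over the libraries, but that SD, 1.77, is nearly as large as the mean. The share of gene windows at least as dense as ESR1 was 14.2% and ran from 11.3% to 24.2%.

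No paired analysis was possible because siCtrl and siCDK12 have replicate number 3 alone in common. The peaks rest on 9 to 17 reads at a summit, and read depth was not given in the lists. With 2 libraries a condition, the exact permutation test could not reach a p of 0.05.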
